A study of Rattus norvegicus with 9 samples.

Results

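The gene table of this rat knee cartilage study held 1706 rows annotated as small nucleolar RNA (snoRNA) genes, among 32043 gene rows in all. Of these, 365 had a value above 0 in at least 1 of the 9 libraries, and the 160 with a value in at least 3 libraries are described here. The members were chosen by their FPKM being above 0, so the number of libraries in which a member was found is given as a description. The members comprised 80 box H/ACA genes, 69 box C/D genes, 2 genes of Cajal body RNAs (Scarna18 and Scarna18b) and 9 genes whose name gives no class, such as U13 and Z39. They were 55 to 246 bases long (median 124) and lay on 20 chromosomes.

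snoRNAs are short nuclear RNAs that work in the nucleolus with a fixed set of proteins. Box C/D snoRNAs guide the methylation of ribose in ribosomal RNA, and box H/ACA snoRNAs guide the conversion of uridine to pseudouridine, while a few, such as U3, U8, U13 and U14, take part in cutting or folding the ribosomal RNA precursor. In mammals most snoRNAs are not transcribed on their own but are trimmed out of introns of host genes, many of which encode ribosomal proteins and translation factors.

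The 9 libraries fell into 3 groups of 3. Control rats had only the knee joint capsule opened and sutured, and model rats had knee osteoarthritis induced by the modified Hulth method (removal of the medial meniscus and of the medial collateral and anterior cruciate ligaments, followed by forced activity). SYD-H rats had the same surgery and then Shengyu decoction, an extract of botanical drugs, by gavage, at the dose the study calls high (the labels give "syd" and no dose). The columns of this group are named CXTB in the deposited table, and the labels tie that name to "syd". The study also had an arm named CXB (the drug celecoxib). Its results give the sequenced groups as control, model and SYD-H, while its methods name only control and model cartilage for sequencing. The treatment is thus that of the labels and the dose is taken from the study. All were male Sprague–Dawley rats. The age of the sequenced animals is not in the labels, and neither is whether each library came from 1 animal, so p-values measure the spread between these libraries, which may be technical.

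The libraries differed in how many reads were left for snoRNA genes. Read totals were alike (14914121 to 19510537), but mitochondrial genes took 4.05% to 4.86% of reads in control libraries, 90.7%, 39.5% and 81.3% in model 1, 2 and 3, and 23.7%, 34.7% and 72.7% in SYD-H 1, 2 and 3. The non-mitochondrial reads were therefore 14306782 to 17373645 in control libraries, 1744769, 11106680 and 3611325 in model 1, 2 and 3, and 12322343, 12745818 and 5153851 in SYD-H 1, 2 and 3. Chondrocyte markers (8 of 8 found) summed to 427 to 10052 FPKM in control, 173 to 761 FPKM in model and 156 to 1025 FPKM in SYD-H libraries, with Matn3 at 0 in model 1, model 3 and SYD-H 3. Marrow and blood markers (8 of 8 found) summed to 7767 to 17765 FPKM in control, 340 to 42757 FPKM in model and 1555 to 15030 FPKM in SYD-H libraries, with Elane at 0 in model 3, and muscle markers (4 of 4 found) to 4.83 to 218, 11.1 to 337 and 8.47 to 574 FPKM, with Mb at 0 in model 2. The part of depth and of these cells in the results below was not tested, and fewer cells of a type and less RNA per cell cannot be told apart.

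FPKM (fragments per kilobase of gene length and per 1000000 fragments) scales a few reads on a short gene to a sizeable value. The library size implied by the deposited values was 30015900 to 39425800 in control libraries. It was 3636670, 26430900 and 6648550 in model 1, 2 and 3, and 26556700, 28396200 and 11515000 in SYD-H 1, 2 and 3. These sizes did not follow the read totals, and how they were set is not given in the sources used here. Every FPKM value depends on them. For a gene of 80 bases, 3 reads were worth 0.951 to 1.25 FPKM in control libraries, 10.3, 1.42 and 5.64 FPKM in model 1, 2 and 3, and 1.41, 1.32 and 3.26 FPKM in SYD-H 1, 2 and 3. These 3 reads are used as the floor for a gene at 0, and they cover counting error only. In model and SYD-H libraries many genes expected at 3 to 30 reads had none, so a ratio to this floor bounds no fold change. Whole read numbers were recovered from the table and are given beside the FPKM values.

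Reads fell on 145, 151 and 149 of the 160 members in control 1, 2 and 3, on 1, 40 and 4 in model 1, 2 and 3, and on 87, 82 and 20 in SYD-H 1, 2 and 3. The ranges of the control and model libraries did not overlap, nor did those of the control and SYD-H libraries, while model 2 lay between SYD-H 3 and SYD-H 2. The group means were 148 ± 3.06, 15 ± 21.7 and 63.0 ± 37.3 members (SD, n = 3). A total of 131 members had reads in all 3 control libraries, 0 in all 3 model libraries and 9 in all 3 SYD-H libraries, and 117 had no read in any model library. A set of 35 members had reads only in control libraries and so entered the list through the control group alone.

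**Figure D1:**
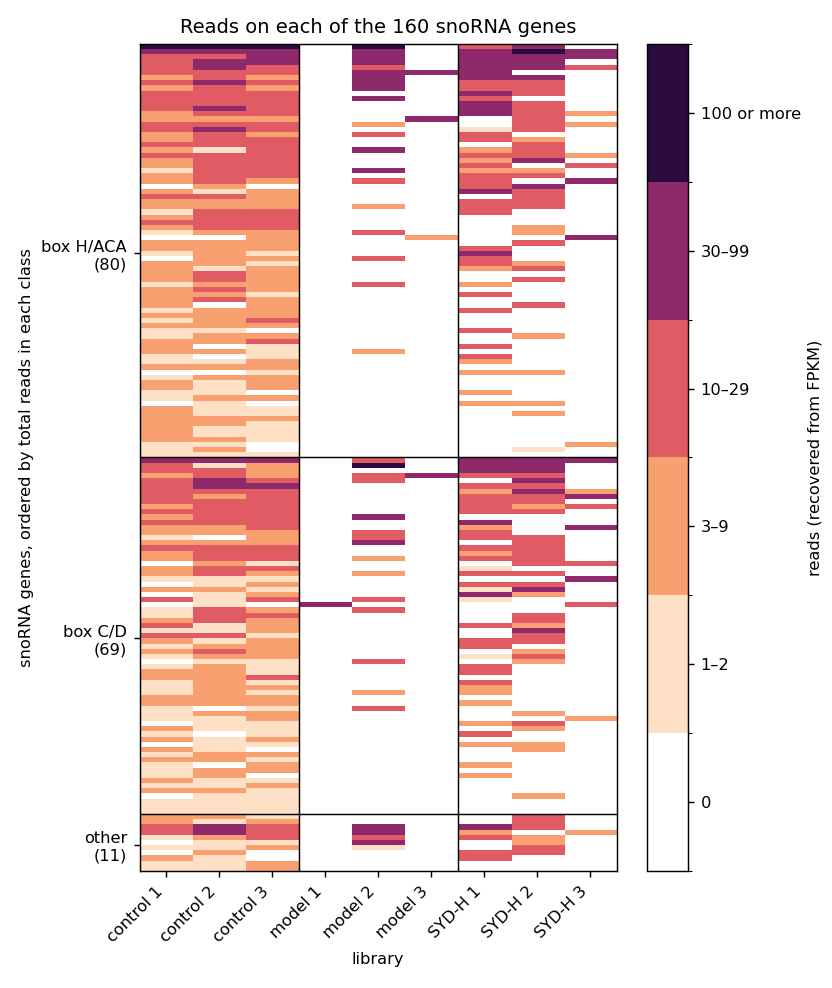
Reads on each of the 160 snoRNA genes (rows, by class and total reads) in the 9 libraries (columns), with white for 0 reads and darker colours for more reads. The control columns are filled for 145 to 151 genes, mostly in pale colours, whereas the model and SYD-H columns hold fewer genes in darker colours, down to 1 gene in model 1.

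Numbers of members with reads were also computed at a common depth, over members that the rule had chosen for having reads. At 1744769 non-mitochondrial reads, the number in model 1, the control libraries would hold reads on 66.3, 78.1 and 73.4 members, model 2 on 35.7, model 3 on 3.99, and SYD-H 1, 2 and 3 on 71.0, 67.5 and 19.3. At that common depth SYD-H 1 and SYD-H 2 were inside the control range, while model 1, model 2, model 3 and SYD-H 3 were below it. The computation treats reads as drawn independently. Model and SYD-H libraries held more reads per member with reads, as given below, so these numbers do not fully match depth.

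The members with reads, which were a different set in each library, had a higher median number of reads in the model and SYD-H libraries. The median number of reads per member with reads was 4, 6 and 6 in control 1, 2 and 3, 30, 25.5 and 48.5 in model 1, 2 and 3, and 16, 14 and 22 in SYD-H 1, 2 and 3. Members with exactly 1 read numbered 32, 22 and 20 among control libraries, against 0, 1 and 0 for model 1, 2 and 3 and 3, 1 and 0 for SYD-H 1, 2 and 3. In both measures the control libraries did not overlap with the others. This does not hold gene by gene, as LOC120103261 had 122 to 206 reads in control libraries and 63 or fewer in SYD-H libraries.

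The summed level did not separate the groups. Members took 70.1, 106 and 87.3 reads per 1000000 non-mitochondrial reads in control 1, 2 and 3, 17.2, 123 and 46.5 in model 1, 2 and 3, and 148, 134 and 93.1 in SYD-H 1, 2 and 3. The means were 87.7 ± 17.8, 62.4 ± 54.8 and 125 ± 28.6 (SD, n = 3), and model 2 was above every control library although 40 members carried its 1370 snoRNA reads. The control libraries placed 1003 to 1703 reads on 145 to 151 members. Box H/ACA members held 59.1% to 61.7% of the snoRNA reads in control libraries, 61.8% in model 2, 79.2% in model 3 and 51.0% to 57.4% in SYD-H libraries. Box C/D members held 33.2% to 36.4%, 27.8%, 20.8% and 35.8% to 47.9% of them in the same order. The model 3 shares rest on 4 members, and model 1 was the only library without a box H/ACA read.

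**Figure D2:**
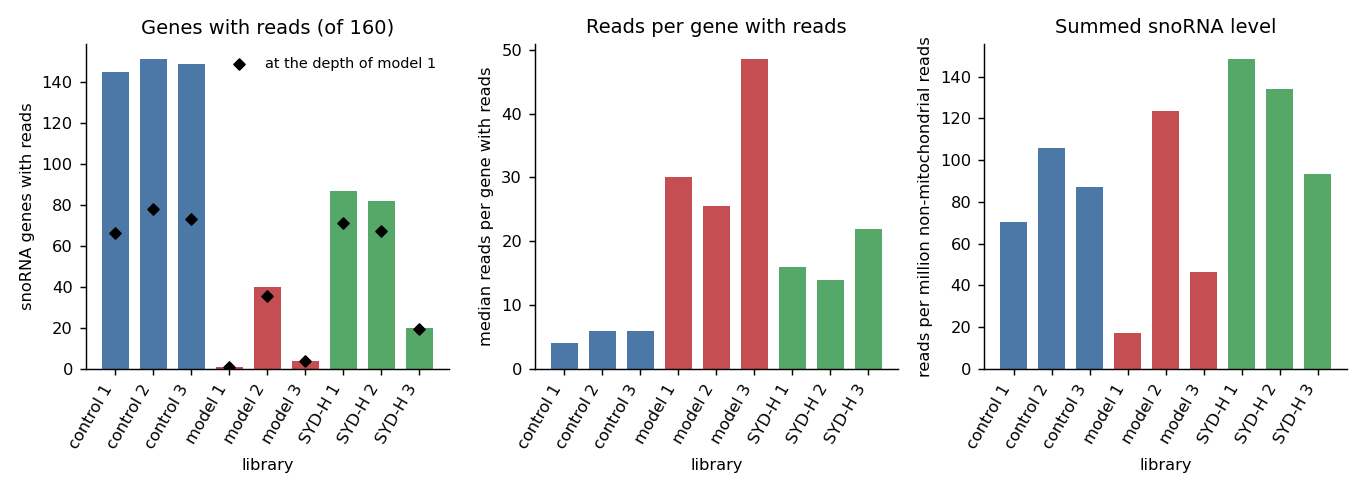
Members with reads, median reads per member with reads, and reads on members per 1000000 non-mitochondrial reads, 1 bar per library (blue control, red model, green SYD-H), with diamonds for the members expected at the 1744769 non-mitochondrial reads of model 1. The control bars are the tallest on the left (145 to 151), the model bars the tallest in the middle (25.5 to 48.5), and SYD-H 1 (148) the tallest on the right.

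Other weakly expressed rows are set beside the members here. Only the members were chosen for having reads, and most had them in all 3 control libraries. Their control shares, and the contrast with the other groups, are thus partly set by the rule. Rows that should have 3 to 30 reads in a library, going by their mean level in the control libraries (for a control library, in the others) and the size of that library, were checked for any read. Among snoRNA members of this kind, 95.8% to 98.1% had reads in control libraries, against 88.2% to 96.1% of protein-coding genes. In model 2 the share was 31 of 90 members (34.4%), against 45.8% of protein-coding and 40.6% of long non-coding RNA (lncRNA) genes. In SYD-H 1 it was 57 of 90 (63.3%), against 65.3% of protein-coding genes, and in SYD-H 2 it was 55 of 94 (58.5%), against 65.1%. SYD-H 3 had 12 of 45 (26.7%), against 50.1% of protein-coding and 37.7% of lncRNA genes. Model 3 had 1 of 23 (4.35%), against 39.8% and 24.2%, and model 1 had 0 of 3, against 37.0%. Other small RNA rows (small nuclear, Cajal body and microRNA) had reads in 27.8%, 44.4% and 48.6% of cases in model 2, SYD-H 1 and SYD-H 2, below the members. In model 1, model 3 and SYD-H 3 they were above the members, with 2 of 4, 3 of 7 and 5 of 14 rows. Rows of all these kinds were missing in the model and SYD-H libraries. The rows were not alike in level, since snoRNA members expected a mean of 4.35 reads in model 3 and 5.78 in SYD-H 3, where protein-coding genes expected 13.3 and 12.9 and lncRNA genes 10.4 and 10.7, so the shares in these libraries are not matched.

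**Figure D3:**
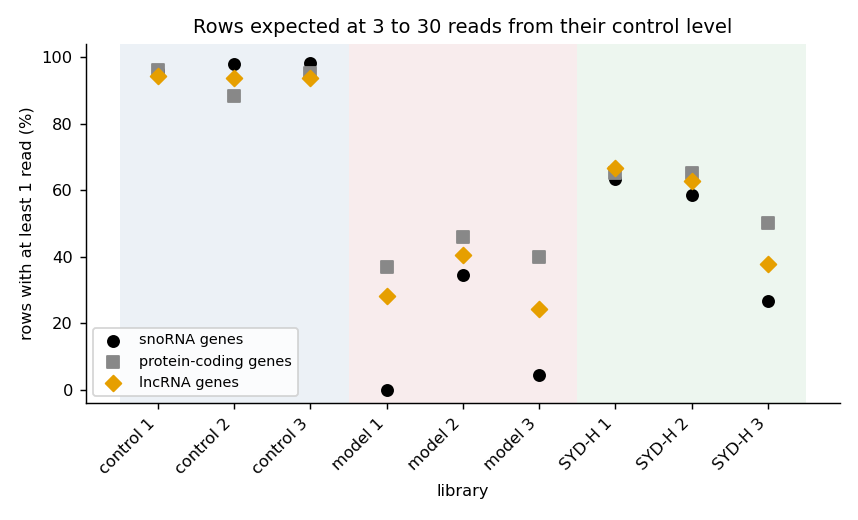
Share of rows with at least 1 read in each library, among rows expected at 3 to 30 reads from their control level, for snoRNA genes (circles), protein-coding genes (squares) and lncRNA genes (diamonds). All 3 kinds lie above 88% in control 1, 2 and 3, while in model 1, 2 and 3 the protein-coding genes lie at 37.0% to 45.8% and the snoRNA genes at 0% to 34.4%.

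At the margin of the rule, 55 members had a value in exactly 3 libraries, with a median of 12 reads over all libraries and a median mean level of 0.385 FPKM, and 86 snoRNA rows with a value in 2 libraries stayed outside, with medians of 5 reads and 0.147 FPKM. The highest mean just inside was that of Snord8 (9.59 FPKM), which rested on 45 reads, 30 of them in model 1, where it was the only member with reads. The next were LOC120099025 of the SNORA17 family (44 reads) and Snora71a (67 reads). The highest just outside were LOC120100487 (24 reads), Snora51 (22 reads) and LOC120095415 (26 reads).

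The most read member was LOC120103261, a SNORA16 gene of the box H/ACA class on chromosome 5 (144505211 to 144505346, plus strand). Positions are those of the authors' table, whose rat build is not given in the sources used here. It had 122, 206 and 184 reads in control 1, 2 and 3, 0, 149 and 0 in model 1, 2 and 3, and 23, 63 and 0 in SYD-H 1, 2 and 3. In FPKM this was 35.1 ± 5.68 in control, 13.8 ± 23.9 in model and 7.56 ± 8.22 in SYD-H libraries (SD, n = 3). The control and SYD-H libraries did not overlap, whereas model 2 (41.5 FPKM) was at the top of the control range. The log2 fold change, here and below on the log2(FPKM + 1) scale, was -2.83 for SYD-H against control (limma adjusted p = 0.111) and -3.36 for model against control (adjusted p = 0.284).

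Other members with many reads rested on model 2 among the model libraries. Snord123, a box C/D gene, had 14, 2 and 6 reads in control, 0, 137 and 0 in model and 57, 51 and 0 in SYD-H libraries. LOC120100346 (SNORA57) had 15, 36 and 34, then 0, 73 and 0, then 34, 46 and 0 reads, and LOC252890, the gene of Z39, 11, 30 and 15, then 0, 52 and 0, then 72, 22 and 0. In each, 1 or 2 libraries of the model and SYD-H groups were at 0 while the others were, in FPKM, above at least 2 of the 3 control libraries. LOC120097583 (SNORA15) had 4, 14 and 7 reads in control, 62 in model 2 and 54 and 50 in SYD-H 1 and 2, and none elsewhere. Snora3 was the only one of the 10 most read members with reads in model 3 (63 reads, 72.9 FPKM), and it had 17, 20 and 14 reads in control libraries and 65 in model 2. For none of these 5 did a comparison pass an unadjusted p of 0.05 with limma.

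The first comparison asks which genes differ between osteoarthritic and control cartilage. A gene was called by the criteria of the study, which are an absolute log2 fold change over 1 together with an unadjusted p under 0.05, and Benjamini-Hochberg adjusted p-values over all 13898 genes tested are given beside them. Of the 160 members, 119 passed the filter of a mean of at least 0.5 FPKM and were tested. In model libraries 53 of these were called lower and 0 higher, where 11.2% of all genes tested were called lower and 3.55% higher. An adjusted p under 0.05 was reached by 30 members downwards and 0 upwards, against 2.35% and 0.237% of all genes. This count was 0 with voom on recovered reads, 0 with a pseudocount of 5 in place of 1 and 3 after quantile scaling. Model libraries lay below control libraries without overlap for 68 members and above them for 0, against 20% and 8.65% of all genes. The calls were spread over 31 of 58 box C/D and 22 of 52 box H/ACA members tested. These counts are a description and no support, because 46 of the 53 called members, and 26 of the 30 with an adjusted p under 0.05, had reads in fewer than 3 libraries outside the control group. Such members met the rule only through the group where they are high, so their reads are given without p-values or folds.

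The calls rested on absent reads. Of the 53 called members, 50 had no read in any model library. Their control level exceeded the 3-read floor of model 2 in 49 of the 53, that of model 3 in 13 and that of model 1 in 1. Only 9 of the 50 had a control mean above the mean floor of the model group. The median log2 fold change of the members was -1.11, against -0.23 over all genes, but it was 0 when groups without reads were set to the floor. As 77 of the 119 members tested had a group at 0, that median is largely set by the floor and does not measure a change. The count with an adjusted p under 0.05 was 0 without control 1, control 2, control 3 or model 3, 24 without model 1 and 59 without model 2.

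Among box C/D genes, Snord7 (chromosome 10, 68095015 to 68095110) had 17, 34 and 35 reads in control and 0 in each model library, and 21, 14 and 0 in SYD-H libraries. Its control level was 8.26 ± 2.05 FPKM (SD, n = 3). Snord52 had 12, 20 and 27 reads in control libraries, 0 in model libraries and 24, 24 and 0 in SYD-H libraries. LOC120100344, a SNORD101 gene within Rps12, had reads in all 3 SYD-H libraries as well. It had none in model libraries, and its control mean was 1.2 times the model floor (limma adjusted p = 0.0382 for model against control). Snord58b, Snord12b and Snord35b had no model read either, and their control means of 6.59, 4.83 and 5.03 FPKM were below the model floor.

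Among box H/ACA genes, LOC120093043 (SNORA19, within Rpl7l1) had 13, 32 and 28 reads in control and 0 in each model library. LOC120102637 (SNORA7, within Rpl32) had 23, 24 and 21 control reads and 0 model reads. In both, every control library was above every model library. Of the guides with a role in ribosomal RNA cutting or folding, LOC120100233 (SNORD22) had 14, 19 and 21 reads in control and 0 in model libraries. Snord14b, a U14 gene within Rps3, had 6, 10 and 6 control reads and 0 model reads, which is below the floor.

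The 3 other called members had model reads, all of them in model 2. Snord45a, a box C/D gene, had 35, 42 and 38 reads in control and 0, 13 and 0 in model libraries, and its log2 fold change of -2.91 had an adjusted p of 0.124. The others were LOC120094461 (SNORA44), with a log2 fold change of -2.02 (adjusted p = 0.0613), and Snord46, which had reads in 1 model and 1 SYD-H library beside the control libraries.

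U3 and U8, the best known processing snoRNAs, could hardly be read. Of 39 rows with these descriptions, 3 had a value in any library and none in more than 2, so none was a member. The 3 U13 members had 0 to 6 reads in each control library and 0 in every model library, and LOC120093483 had 14 and 11 reads in SYD-H 1 and 2. Snora73bl1, of the SNORA73 family, had 3, 7 and 6 control reads, 7 reads in model 2 and 10 and 18 in SYD-H 1 and 2. Of the snoRNA genes in Rpl13a, LOC120100339 (SNORD33) had 4, 8 and 12 control reads, 0 model reads, and 9, 0 and 40 reads in SYD-H 1, 2 and 3, whereas Snord35a had 6, 4 and 1 control reads and none elsewhere.

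The second comparison, of SYD-H against model libraries, asks what differs after treatment of osteoarthritic rats. In SYD-H libraries 9 of 119 members were called higher, where 3.62% of all genes were, and 0 were called lower, where 0.532% of all genes were. SYD-H libraries lay above model libraries without overlap for 7 members, against 7.89% of all genes. No member had an adjusted p under 0.05 with limma (smallest 0.723, and 9 members had an unadjusted p under 0.05, against 5.26% of all genes), and neither had any of the 13898 genes. Without SYD-H 3, 32 members were called. The 9 called members were exactly the 9 with reads in all 3 SYD-H libraries, so breadth of detection and the call coincide. The median log2 fold change of the members was 0.95, against 0.22 for all genes, and it was 0 with groups at 0 set to the floor. Here 80 of the 119 members had a group at 0, so that median too is largely set by the floor.

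Box C/D members of the 9 were Snord104, Snord45a, Snord58b and LOC120100344 (SNORD101). Snord104 (chromosome 10, 91435313 to 91435382) had 10, 7 and 20 reads in control, 0 in each model library and 27, 15 and 32 in SYD-H libraries. Its SYD-H mean of 20.6 ± 16.9 FPKM (SD, n = 3) was 3.11 times the model floor, and 1.67 times without SYD-H 3. The limma adjusted p against model, with all libraries, was 0.723. Snord45a (chromosome 2, 242849608 to 242849688) had 67, 65 and 33 reads in SYD-H libraries, or 31.1, 28.3 and 35.4 FPKM, against 0, 6.07 and 0 FPKM in model and 14.4, 14.1 and 11.9 FPKM in control libraries. Its 3 groups did not overlap, with the model libraries lowest and the SYD-H libraries highest. Its log2 fold change against model was 4.08 (SE 0.80, adjusted p = 0.723). Snord58b had 16, 7 and 24 reads in SYD-H and 0 in model libraries, and LOC120100344 had 6, 46 and 4 reads in SYD-H libraries. Their SYD-H means were 2.11 and 1.58 times the model floor, but 0.916 times without SYD-H 3 and 0.619 times without SYD-H 2. Neither thus stayed above the floor without that library.

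Box H/ACA members of the 9 were LOC120099441 (SNORA70), LOC120101240 (SNORA24), LOC120102039 (SNORA17), Snora12 and Snora81. LOC120099441 (chromosome X, 152056109 to 152056244) had 30, 44 and 38 reads in control, 0, 79 and 0 in model and 71, 178 and 85 in SYD-H libraries. The level was 7.74 ± 0.917 FPKM in control, 7.33 ± 12.7 FPKM in model and 40 ± 18.1 FPKM in SYD-H libraries (SD, n = 3), and model 2 (22.0 FPKM) overlapped the SYD-H range. LOC120101240 (chromosome 2, 211685412 to 211685541) likewise had 20.4 FPKM in model 2, against 19.4, 22.8 and 22.7 FPKM in SYD-H and 4.1, 6.06 and 8 FPKM in control libraries. In these 2 genes the call thus rested on model 1 and model 3, the libraries with the fewest non-mitochondrial reads. LOC120102039 and Snora81 had no model read, and their SYD-H means were 2.43 and 1.45 times the model floor. Without SYD-H 1, LOC120102039 was at 1.21 times the floor. Snora81 had 3.17, 3.76 and 4.39 FPKM in SYD-H libraries. Snora12 had 17.1, 9.60 and 12.1 FPKM in SYD-H and 0, 6.35 and 0 FPKM in model libraries.

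**Figure D4:**
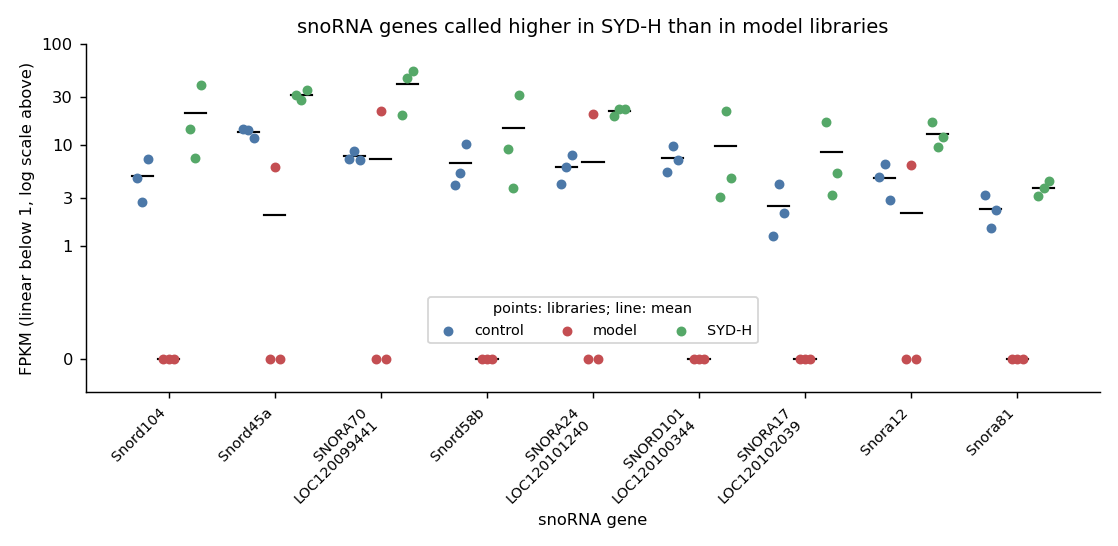
FPKM (linear below 1, log scale above) of the 9 snoRNA genes called higher in SYD-H than in model libraries, with 1 point per library (blue control, red model, green SYD-H) and black lines for group means. Red points lie at 0 in all 3 model libraries for 5 genes and in 2 of 3 for the other 4, among which model 2 reaches 22.0 FPKM for LOC120099441.

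The third comparison sets SYD-H against control libraries. A total of 5 members were called higher and 12 lower, where 7.25% and 9.22% of all genes were called. An adjusted p under 0.05 was reached by 4 members upwards and 9 downwards, against 7.75% and 9.57% of all genes. In place of these 13 there were 3 with voom on recovered reads, 4 with a filter of 5 FPKM and 0 with a replicate block. The libraries did not overlap for 5 members upwards and 12 downwards, against 20.3% and 22.2% of all genes. The count called rose to 26, 34 and 31 without SYD-H 1, 2 and 3, and the count with an adjusted p under 0.05 was 6 without control 3 and 27 without SYD-H 3. The median log2 fold change of the members was -0.06, against 0 over all genes.

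The 4 upward members were LOC120099441 (SNORA70, log2 fold change 2.12, SE 0.38, adjusted p = 0.021), LOC120101240 (SNORA24, 1.72, SE 0.23, adjusted p = 0.0117), Snora12 (1.30, SE 0.32, adjusted p = 0.0439) and Snord45a (1.17, SE 0.14, adjusted p = 0.00992). On TPM, which includes the mitochondrial reads in its total, Snora12 and Snord45a changed sign to -0.041 and -0.31, while the median of all genes moved to -1.31. The adjusted p of Snora12 was over 0.05 on leaving out any 1 library, and that of LOC120099441 on leaving out 4 of the 6 (control 1, control 2, control 3 or SYD-H 2). That of Snord45a was over 0.05 without control 3 (0.0598). Every SYD-H library was above every control library in these 4 genes, and Snord104 was called as well (1.64) with an adjusted p of 0.122.

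Of the 12 called lower, 10 had no read in any SYD-H library. Reads in control libraries alone were found for 8 of the 12, and for 7 of the 9 with an adjusted p under 0.05. Of the 12, 11 (and all 9 with an adjusted p under 0.05) had reads in fewer than 3 libraries outside the control group, so no p-values or folds are given for them. LOC120094450, a SNORD50 gene, had 8, 22 and 23 reads in control, 0 in each SYD-H library and 35 in model 2. LOC120097593 (SNORA48) had 8, 23 and 17 control reads and none in the other 6 libraries. LOC120094514 (SNORA17) had 10, 24 and 12 control reads and none elsewhere. LOC120099071 (SNORA9), Snora65, Snord96a, LOC120095461 (SNORD91) and Snord60 had 2 to 16 reads in each control library and none elsewhere. Snord35b had 9, 27 and 11 control reads and, of the other 6 libraries, 2 reads in SYD-H 1, so it too passed through its control values.

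A total of 27 families with several members held 74 of the 160. The 3 members of the SNORD12 family (Snord12, Snord12b and Snord12c) each had reads in all 3 control libraries and in SYD-H 1 and 0 in every model library. The SNORA17 family had 7 members, the most of any, and its copies were read in different libraries. LOC120094514 had control reads alone, LOC120102039 had 60, 12 and 8 reads in the SYD-H libraries, LOC120103317 had 43 reads in model 2, and LOC120099025 had 8 reads in model 3 and 33 in SYD-H 3 but 0, 0 and 3 in control libraries. Reads between near-identical copies can be divided differently by the counting method, which is not given in the sources used here, so values of single copies are uncertain.

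A total of 117 members lay inside 80 host genes on the same strand, 40 of them in 26 ribosomal protein genes, and 43 lay in no other gene on that strand. In 22 hosts there were several members, led by Taf1d, a subunit of the factor that recruits RNA polymerase I, with 7, LOC100912041, an lncRNA gene, with 5, and Rpl4 with 4. Reads of an unspliced host transcript and of the mature snoRNA cannot be told apart in such a table.

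The hosts were well covered. The median host had 1988.5 to 2874.5 reads in control libraries, 235.5, 1533.5 and 551.5 in model 1, 2 and 3 and 722 to 1683 in SYD-H libraries, and hosts without a read numbered 11 in model 1, 5 in model 3 and 0 elsewhere. In model against control, 3 of 80 hosts were called higher (among them Rps3a and Rpl23a, log2 fold changes of 1.19 and 1.04) and 4 lower (Cwf19l1, Cep295, LOC687679 and Srcap), which is 3.75% and 5% of hosts against 3.55% and 11.2% of all genes. With limma, 0 of 80 hosts had an adjusted p under 0.05, and the median host log2 fold change was 0.07. In 72 of 90 pairs in which both were tested, the member had the lower log2 fold change, with a median difference of -1.04. In SYD-H against model the member had the lower value in 22 of 90 pairs, with a median difference of 1.02, and in SYD-H against control in 45 of 90 with a median difference of 0.01. In SYD-H against control 8 of 80 hosts had a limma adjusted p under 0.05, where 7.75% of all genes did upwards and 9.57% downwards. The first 2 comparisons share the model libraries, and the member values carry the floor described above. Unlike the hosts, the members were chosen for having reads, and 46 of the 53 called lower met the rule only through control libraries. The direction of the pair counts in these 2 comparisons is thus partly set by the rule, and they are a description.

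**Figure D5:**
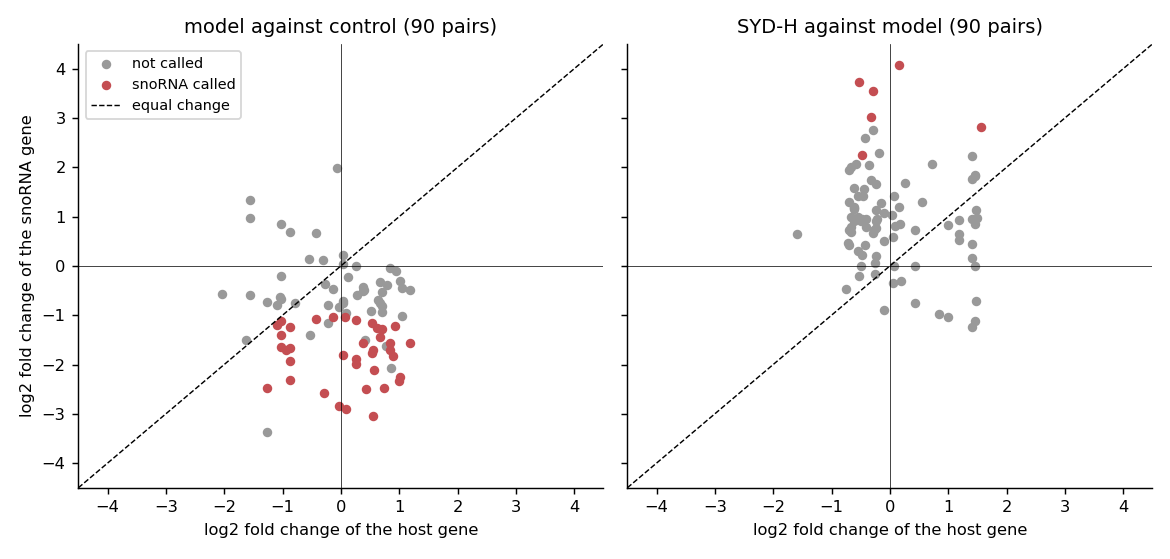
log2 fold change of each snoRNA gene (vertical axis) against that of its host gene (horizontal axis), for 90 pairs, in model against control (left) and SYD-H against model (right), with called snoRNA genes in red and a dashed line for equal change. On the left 72 of 90 points lie below the line and on the right 22 of 90. Members but not hosts were chosen for having reads, so these counts are a description.

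Rpl10, a protein of the large ribosomal subunit, measured 345, 401 and 402 FPKM in control, 573, 413 and 1173 FPKM in model and 390, 406 and 583 FPKM in SYD-H libraries, while its SNORA70 member was at 0 in model 1 and model 3 and at 22.0 FPKM in model 2, above every control library. Rabggtb, a subunit of an enzyme that attaches lipids to Rab proteins, was 18.5 ± 0.668, 20 ± 3.73 and 22.3 ± 1.83 FPKM in control, model and SYD-H libraries (SD, n = 3), where Snord45a was 13.5 ± 1.36, 2.02 ± 3.51 and 31.6 ± 3.58 FPKM. Rps12, Rpl17 and Eif4a2, a translation initiation helicase, had no comparison with an adjusted p under 0.05. Cwf19l1, the host of Snora12, measured 6.53 ± 0.218, 1.88 ± 1.66 and 6.32 ± 1.30 FPKM in the same order (SD, n = 3), and was called lower in model (log2 fold change -1.63, adjusted p = 0.215) and higher in SYD-H against model libraries (1.57, adjusted p = 0.723). LOC120102992, the lncRNA host of the most read member, was at 0 in model 1 and at 4.93 FPKM in model 3, where that member had no read.

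Members of 1 host also differed. Of the 7 in Taf1d, LOC120094521 (SNORA40) had 62 reads in model 3, LOC120094453 (Z40) had 17 in model 2, and LOC120094454 (SNORA8) had 6, 5 and 6 reads in control libraries and none elsewhere. Of the 4 in Rpl4, LOC120094437 (SNORD18) had 1, 33 and 0 reads in SYD-H 1, 2 and 3 and LOC120094439 (SNORD18) had 20, 0 and 0. Single members of a host were thus high in different libraries.

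Genes of ribosomal proteins are known for starting with a run of pyrimidines, which ties their translation to growth signals. The starts of 3 hosts of members called in SYD-H against model are shown, from the RefSeq promoter table (build GRCr8, a build that may differ from that of the gene table), 40 bases before and 20 bases from the annotated start, with capitals for a C at the start followed by at least 4 pyrimidines.
Rpl10 (SNORA70), chrX:157205810-157205869, plus strand: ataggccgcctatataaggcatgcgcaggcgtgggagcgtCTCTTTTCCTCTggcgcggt
Rabggtb (Snord45a), chr2:245510760-245510819, minus strand: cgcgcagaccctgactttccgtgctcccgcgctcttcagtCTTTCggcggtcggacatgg
Eif4a2 (Snora81), chr11:91275304-91275363, minus strand: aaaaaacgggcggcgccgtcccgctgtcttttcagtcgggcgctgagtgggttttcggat
The tract was searched on the gene's own strand at the annotated start. It was present in Rpl10, Rabggtb and Rpl17 and not in Rps12, Cwf19l1 or Eif4a2. It stood in 5 of the 65 host promoters with an entry (7.69%) and in 881 of 33469 promoters of all genes (2.63%). Of the 18 ribosomal protein hosts with an entry, 3 had it at the annotated start. No sequence of a member itself was available here.

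Proteins that carry and assemble snoRNAs were taken from a list of 28 genes in the table, 27 of them tested. In model against control 1 was called lower (Ruvbl2, an assembly helicase, log2 fold change -1.34, adjusted p = 0.257) and 0 higher, where 11.2% and 3.55% of all genes were. The log2 fold change was below 0 for 21 of 27, against 61.3% of all genes, and the median was -0.49, against -0.23. In SYD-H against model 1 was called higher (Dkc1, the pseudouridine synthase of box H/ACA particles, 1.02, adjusted p = 0.723), where 3.62% of all genes were. In SYD-H against control, where 9.22% of all genes were called lower, 2 of 27 were, Fbl, the box C/D methyltransferase, and Ruvbl1, with log2 fold changes of -1.25 for both (adjusted p = 0.0443 and 0.0189), and Rpap3, an assembly cofactor, had a positive value of 0.81 (adjusted p = 0.0367). Fbl measured 33.9 ± 7.21, 22.4 ± 15.2 and 14.2 ± 5.61 FPKM in control, model and SYD-H libraries, and Dkc1 26.6 ± 5.69, 19.4 ± 7.21 and 39.5 ± 12.4 FPKM (SD, n = 3).

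The other core proteins did not pass the call in any comparison. In model libraries Nop56, a box C/D scaffold protein, was at 12 FPKM, 13.7 FPKM and 0, and Nop10, of box H/ACA particles, at 4.81, 29.3 and 54.5 FPKM, which shows the spread within that group for genes longer than the snoRNAs. Nop58, Snu13, Nhp2 and Gar1 had absolute log2 fold changes of 0.46 or less in each comparison. The processing enzymes Dbr1, which opens the intron lariat, Xrn2, Exosc10 and Parn had adjusted p-values over 0.05 in each comparison.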

How the data were processed

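RNA sequencing of rat knee cartilage gave 9 libraries, 3 per group, grouped by the sample labels. The authors deposited 1 table of FPKM per gene and library (kit Illumina TruSeq RNA). The submitters' processing notes name HISAT2 2.0.5 and the build hg38, a human build, although the rows are rat genes. The counting tool, the use of strand and the rat build are not given in the sources used here. The extract protocol speaks of retinas, where the labels and the study say cartilage.

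The deposited FPKM times gene length are whole multiples of 1 step in each library, which is worth 1 read (100% of values within 0.1 of a whole number), which gave 14914121 to 19510537 reads per library. Members were rows with biotype snoRNA and a value in at least 3 libraries. Class and family came from the descriptions, and hosts were genes enclosing a member on the same strand. The test was limma 3.58.1 (R 4.3.3), lmFit and eBayes with a trend, two-sided, on log2(FPKM + 1) of the 6 libraries compared, for the 13898 genes with a mean of at least 0.5 FPKM. Changes of low genes are understated on this scale. P-values were adjusted by Benjamini-Hochberg over these genes. The main limma fit was tested first on simulated data for model against control, with a spread taken from the control libraries only. The fits of the other comparisons and the alternatives were not simulated. With 3 libraries against 3, an exact permutation test cannot go below 0.1, so none is given.

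The members, gene lists and tests were chosen with earlier results of these data known. Genes were named by rule: the 10 members with most reads, the members called in model against control or SYD-H against model and those with an adjusted p under 0.05 (up to 10 per direction), known processing snoRNAs, members at the edge of the rule, hosts of these, and the protein list. A member with reads in all 9 libraries would also have been named, and there was none. Named outside it, after their values were seen, were Snord46, LOC120094461, the other members of Taf1d, Rpl4 and the SNORA17 family, and hosts that were called. 0 value columns were left out. Alternatives were other pseudocounts (0.1, 5), filters (none, 5 FPKM), TPM, non-mitochondrial scaling, quantile scaling, voom on recovered reads, 1 fit of all libraries, a replicate block and leaving out each library.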

Additional observations from a re-analysis of the deposited data

How the results depend on the processing

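Members called in model against control (53) numbered 7 with a pseudocount of 5, 5 with a filter of 5 FPKM, 87 on TPM, 32 after quantile scaling, 21 with voom on recovered reads and 47 to 73 on leaving out 1 library. Those with an adjusted p under 0.05 (30) numbered 52 with a pseudocount of 0.1, 0 with a pseudocount of 5, with a filter of 5 FPKM and with voom, 77 on TPM, 3 after quantile scaling, 14 with all 9 libraries in 1 fit and 0 to 59 on leaving out 1 library. Members called in SYD-H against model (9) numbered 36 on TPM, 5 with voom, 34 with all 9 libraries and 6 to 32 on leaving out 1 library, and in SYD-H against control (17) 5 with a pseudocount of 5, 27 without a filter, 6 with a filter of 5 FPKM and 15 to 34 on leaving out 1 library. With an adjusted p under 0.05 (13) there were 21 without a filter, 4 with a filter of 5 FPKM, 3 with voom, 7 with all 9 libraries and 6 to 27 on leaving out 1 library. The cause of these changes was not tested. Fewer genes were tested with the stricter filter. On TPM, 0 members were called higher and 24 lower in SYD-H against control. The median over all genes in model against control was -0.23, but -2.60 on TPM, -0.38 with non-mitochondrial scaling and 0.04 after quantile scaling. The members' median lay 0.88, 0.16, 1.39 and 0.47 below these. In SYD-H against control, Snora12 turned to -0.041 and Snord45a to -0.31 on TPM.

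Same-numbered libraries did not deviate together (correlations of -0.27 to 0.19), so the numbers do not pair the libraries. With a replicate block, members with an adjusted p under 0.05 numbered 0 in model against control and 0 in SYD-H against control, members called in SYD-H against model 15, and genes for snoRNA particle proteins called 0 in model against control and 0 in SYD-H against model. None of all genes tested had an adjusted p under 0.05 with this block in SYD-H against control, so Fbl, Ruvbl1 and Rpap3 did not either.

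Of the genes for proteins of snoRNA particles, 1 was called in model against control, but 2 with a pseudocount of 0.1, 0 with a pseudocount of 5, 0 without a filter, 24 on TPM, 5 with voom, 2 with all 9 libraries and 0 to 5 on leaving out 1 library. In SYD-H against model 1 was called, but 0 with a pseudocount of 5, 0 on TPM and 0 to 4 on leaving out 1 library. Control libraries had reads on a mean of 148 members, but 72.6 at a common depth and 107 at 3 or more reads. The SYD-H share of 125 reads per 1000000 non-mitochondrial reads was 75.4 reads per 1000000 over all reads. At their control level, 3 members would have at least 3 reads in model 1 (0 of them had any) and 24 in model 3 (1 of them had any). For the other members a value of 0 there was not detectable as a difference at this depth.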

Other observations

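Other short RNA genes in the table with a value in at least 3 libraries also had fewer rows with reads in each model library than in any control library. Of 48 such small nuclear RNA rows, 40, 44 and 42 had reads in control 1, 2 and 3, 1, 7 and 1 in model 1, 2 and 3, and 16, 15 and 2 in SYD-H 1, 2 and 3. Of 30 such microRNA precursor rows, 26, 23 and 25 had reads in control, 2, 13 and 2 in model and 21, 26 and 7 in SYD-H libraries. The microRNA rows in SYD-H 2 (26) were as many as in the control library with the most. Of 8 rows with the biotype of Cajal body RNA, 7, 6 and 8 had reads in control, 0, 3 and 0 in model and 3, 6 and 1 in SYD-H libraries. Control and SYD-H libraries thus overlapped for the microRNA and Cajal body rows, unlike for the members.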
